A study of Mus musculus with 34 samples.

Results

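The LIM homeobox genes described here are Lhx1, Lhx2, Lhx5, Lhx9, Lmx1a, Lmx1b and Isl2, which are 7 of the 20145 genes that the accessions of the array could name. All their probes on the array were taken, 10 in all, and followed through the 34 fractions of the neonatal mouse brain, each plane of section by itself. They were taken as members of 1 gene family, of which Isl1, Lhx3 and Lhx4 are named below only beside them and others are not described.

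LIM homeobox genes code for transcription factors that carry a pair of LIM zinc fingers in front of a homeodomain. The homeodomain binds DNA, and the LIM fingers bind the cofactor Ldb1, which bridges these factors into larger complexes. Lmo proteins, which have LIM fingers and no homeodomain, compete for the same cofactor. In the developing brain the family is known for marking bands and classes of neurons, such as cerebellar Purkinje cells (Lhx1 and Lhx5), the cerebral cortex (Lhx2), the thalamus (Lhx9), midbrain dopamine neurons (Lmx1a and Lmx1b), serotonin neurons (Lmx1b) and motor neurons (Isl2).

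The brains of 3 male C57BL/6J mice, 3 days old and grown in pathogen-free conditions with no treatment or engineered allele in the labels, were cut in a plane each. Mouse 1 gave 15 coronal fractions, mouse 2 gave 8 horizontal fractions and mouse 3 gave 11 sagittal fractions, each 500 µm thick, except that sagittal fractions 1 and 11 pooled 2 cuts each. Each fraction was hybridised once to a single-colour Agilent array, so a plane cannot be told apart from its mouse, no fraction has a replicate array, and the number of arrays limits the precision. In the tests below, neighbouring or mirrored fractions of 1 mouse stand in for replicates, so that p-values compare positions within 1 brain and say nothing of other mice.

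Of the 55681 probes other than controls, an array detected (flagged well above background) between 27011 and 34168, and the arrays lay on 5 slides. Levels are given as the log2 of the background-subtracted signal less the array's 75th percentile, so that 0 is the level of the 75th percentile of probes and each unit is a doubling. Such levels compare fractions for 1 probe, and not genes with each other. In these bulk fractions fewer cells of a type and less RNA per cell cannot be told apart. The labels do not state at which end the fraction numbers start. In the coronal series Hoxb5, a gene of the caudal hindbrain, was highest in fraction 2, at 4.92, and Tbx21, of the olfactory bulb, in fraction 15, at 3.46. Horizontal fraction 1 stood apart from its neighbours, since Hoxb5 was at 0.82 there against -5.43 in fraction 2 and -6.55 in fraction 3, both at background. Horizontal tests of the 7 genes are therefore given with and without that fraction. Horizontal correlations, cofactor counts and list peaks include it unless stated.

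For 6 of the 7 genes RefSeq promoter windows were at hand (assembly GRCm38.p6), and 3 of them are printed because they stand at the ends of the range of CpG content or hold a rare motif. Each is the 250 bases before the annotated start, 5′ to 3′ on the gene's strand, in lower case with motif matches in capitals.

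Lhx1, chr11:84525535-84525784, minus strand: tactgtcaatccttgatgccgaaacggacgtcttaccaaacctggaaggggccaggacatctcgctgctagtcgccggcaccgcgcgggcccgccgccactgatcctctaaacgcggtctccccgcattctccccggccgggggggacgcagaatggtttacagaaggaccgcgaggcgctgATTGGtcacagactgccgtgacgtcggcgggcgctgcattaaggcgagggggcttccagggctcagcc
Lhx9, chr1:138842445-138842694, minus strand: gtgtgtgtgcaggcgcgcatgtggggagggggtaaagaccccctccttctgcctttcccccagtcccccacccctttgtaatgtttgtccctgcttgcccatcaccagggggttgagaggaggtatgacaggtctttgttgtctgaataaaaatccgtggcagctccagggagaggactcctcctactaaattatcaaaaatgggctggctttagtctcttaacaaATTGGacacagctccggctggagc
Isl2, chr9:55540899-55541148, plus strand: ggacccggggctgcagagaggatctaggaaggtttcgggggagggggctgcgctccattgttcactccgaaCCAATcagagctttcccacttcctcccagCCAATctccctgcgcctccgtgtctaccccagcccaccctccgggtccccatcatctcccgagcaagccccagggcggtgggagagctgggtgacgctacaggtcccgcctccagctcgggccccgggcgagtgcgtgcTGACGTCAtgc

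The motifs searched on both strands, chosen after the profiles were seen, were TAATTA (a homeodomain core), TAATCC (a core read by Crx and Otx proteins), TGACGTCA (the full cyclic AMP response element) and CCAAT (the CCAAT box), and none of their matches overlap. Over the 32851 promoter windows of the same length, 4.84% held TAATTA, 6.25% TAATCC, 1.55% TGACGTCA and 33.8% CCAAT. The Isl2 window held TGACGTCA once and CCAAT at 2 places. The Lhx1 and Lhx9 windows held CCAAT once each, on the opposite strand. Neither TAATTA nor TAATCC was found in the 7 windows of the 6 genes (Lhx2 has 2). CpG pairs numbered 26 in the Lhx1 window and 4 in the Lhx9 window, against a median of 6 over all windows. Lhx5 has no entry in the table.

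**Figure D1:**
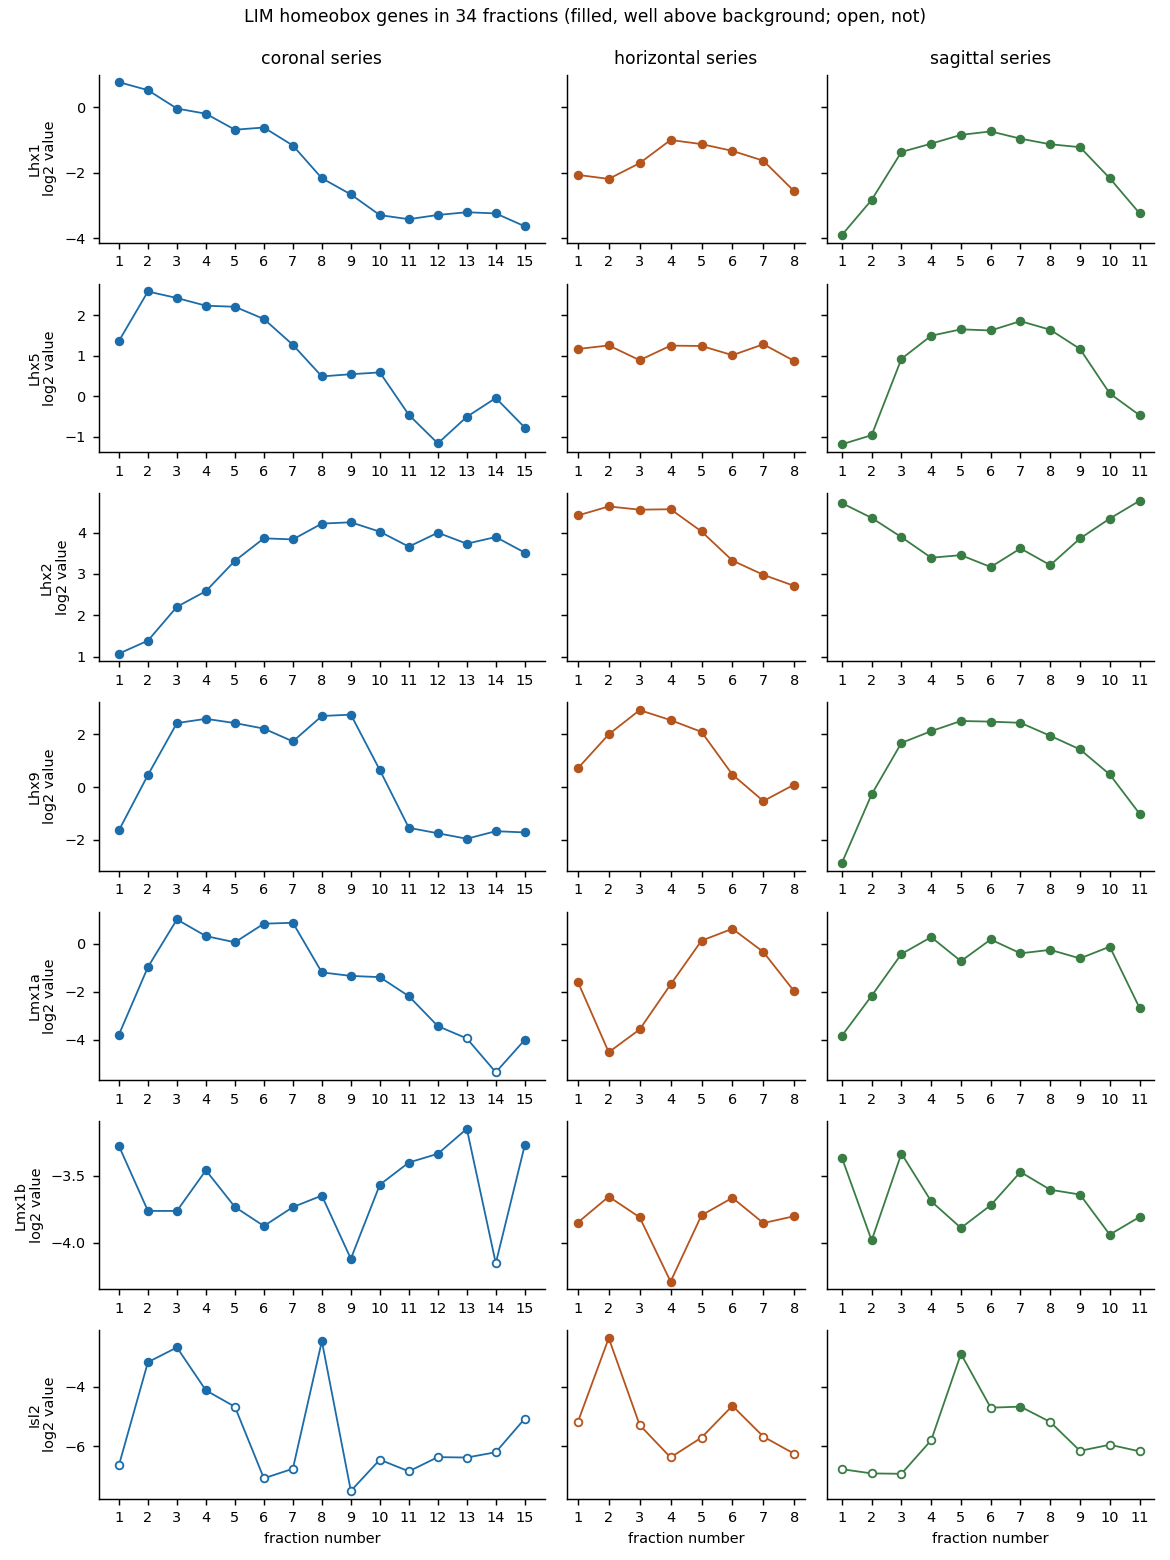
Log2 level (vertical axis, 1 row per gene, own scale in each row) against fraction number (horizontal axis) in the coronal, horizontal and sagittal series, for the main probe of each gene. Filled points were well above background and open points were not. Lhx1 and Lhx5 fall along the coronal series while Lhx2 climbs from 1.08 to a maximum of 4.25 in fraction 9, and Isl2 is above background in 8 of the 34 fractions.

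Along the coronal series, 5 of the 7 genes differed between 5 consecutive blocks of 3 fractions: Lhx1, Lhx2, Lhx5, Lhx9 and Lmx1a. Lhx1 and Lhx5 were highest at the low-numbered end, Lhx9 and Lmx1a in the middle, and Lhx2 from the middle to the high-numbered end. Lmx1b and Isl2 did not pass the test. In the same test (limma, Benjamini-Hochberg adjusted p under 0.05 over all probes) 25.0% of all probes passed, and 43.2% of those detected at least once in each plane. The 5 genes spanned 3.17 to 6.36 on the log2 scale from their lowest to their highest coronal fraction, where the median detected probe spanned 1.17. The widest range, that of Lmx1a, has its lowest value at background. The Lmx1b probes spanned 1.01 and 2.41, and Isl2 spanned 5.04, with 11 of its 15 values at background. Coronal fractions 1 to 8 lay on slide 2 and most others on slide 3, and with slide as a term the adjusted p was 0.015 for Lhx1, 0.0111 for Lhx2, 0.146 for Lhx5, 0.0796 for Lhx9 and 0.256 for Lmx1a.

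**Figure D2:**
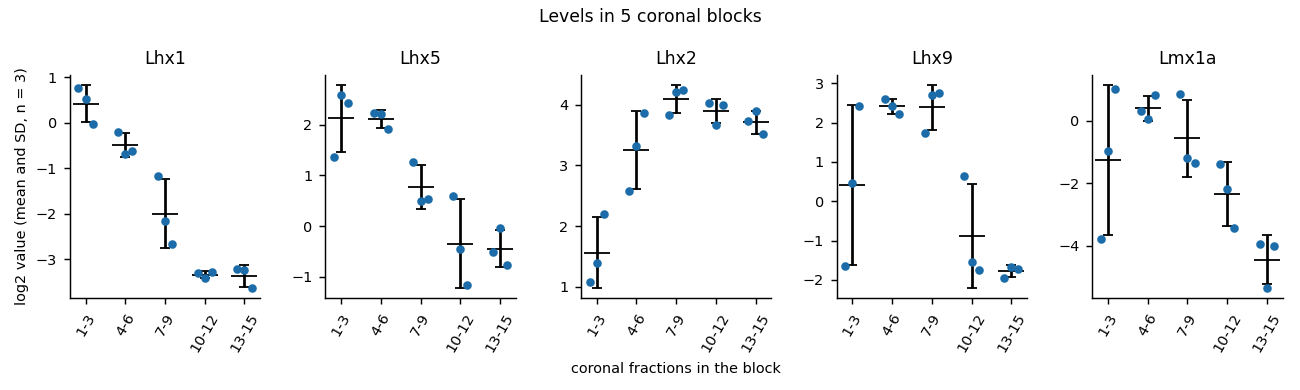
Log2 level (vertical axis, own scale in each panel) of 5 genes in the 5 coronal blocks (horizontal axis). Points are fractions, bars the mean and SD of 3 fractions. The Lhx1 means run from 0.42 to -3.37, and the Lhx2 means from 1.56 to 4.10.

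Lhx1, a factor of Purkinje cells, of the hypothalamus and of the early body axis, fell along the coronal series. Its probe A_55_P2231244 had levels of 0.77, 0.53 and -0.04 in fractions 1 to 3, of -0.19, -0.68 and -0.62 in fractions 4 to 6 and of -1.17, -2.17 and -2.66 in fractions 7 to 9. From fraction 10 on it lay between -3.64 and -3.21, at low signals (21.6 to 42.4 before scaling) that were flagged well above background throughout. The 5 blocks had means of 0.42 ± 0.41, -0.50 ± 0.27, -2.0 ± 0.76, -3.34 ± 0.07 and -3.37 ± 0.24 (SD, n = 3 fractions each). The first 4 blocks did not overlap each other, and the last overlapped the block before it. The level in fractions 1-3 was 13.8-fold that in fractions 13-15, and the blocks differed with an adjusted p of 9.99e-06. Within slide 2, which holds fractions 1 to 8, the adjusted p was 0.0169, and within slide 3, with 6 of the higher-numbered fractions, it was 0.492.

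Lhx5, the closest relative of Lhx1 in sequence and a partner of it in Purkinje cell development, followed a similar course. Its probe A_51_P403564 was at 1.36 in coronal fraction 1 and at 2.59 in fraction 2, and stayed between 1.91 and 2.43 in fractions 3 to 6. It was at 1.27 in fraction 7, between 0.49 and 0.59 in fractions 8 to 10, and lowest in fraction 12, at -1.17. The block means were 2.13 ± 0.66, 2.12 ± 0.18, 0.77 ± 0.44, -0.35 ± 0.88 and -0.44 ± 0.37 (SD, n = 3). Blocks 1-3 and 4-6 overlapped, as did the last 3 blocks in their order. The highest block was 5.94-fold the lowest (adjusted p = 0.000385). Within slides 2 and 3 the adjusted p was 0.100 and 0.299.

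The highest levels of both genes lay in or beside the coronal fraction where the list of Purkinje cell genes was highest. All 6 genes of that list were detected, and their summed linear level, where 1 is the 75th percentile of probes, ran from 6.84 to 96.2 over the coronal fractions. Pcp2, a gene of Purkinje cells, was at 6.19 in coronal fraction 1, its highest. Lhx1 was highest in the same fraction and Lhx5 in the next one. In fraction 1 itself Lhx5 was at 1.36, below its levels of 1.91 to 2.59 in fractions 2 to 6. The caudal hindbrain Hox and cerebellar granule lineage lists were highest in coronal fraction 2, the highest fraction of Lhx5. The part of cell numbers in the profiles was not tested.

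Lhx2, which is needed for the formation of the cerebral cortex and the hippocampus, went the opposite way. Its probe A_51_P257419 rose from 1.08 in coronal fraction 1 through 1.39, 2.21, 2.59 and 3.32 to 3.86 in fraction 6, reached 4.25 in fraction 9, and stayed between 3.52 and 4.02 in fractions 10 to 15. The block means were 1.56 ± 0.58, 3.26 ± 0.64, 4.10 ± 0.23, 3.89 ± 0.20 and 3.71 ± 0.19 (SD, n = 3). Fractions 1-3 did not overlap any other block, while the other 4 blocks overlapped their neighbours in rank. The highest block was 5.83-fold the lowest (adjusted p = 0.000216). Within slides 2 and 3 the adjusted p was 0.0155 and 0.294.

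Lhx9, a close relative of Lhx2 that marks the thalamus and dorsal midbrain, was high only between the ends. Its main probe A_55_P2111264 was at -1.64 in coronal fraction 1, at 0.46 in fraction 2 and at 2.42 in fraction 3, then stayed between 1.73 and 2.74 up to fraction 9. It was at 0.64 in fraction 10 and between -1.96 and -1.54 from fraction 11 on. The block means were 0.41 ± 2.03, 2.41 ± 0.19, 2.39 ± 0.57, -0.88 ± 1.33 and -1.78 ± 0.15 (SD, n = 3), with the large spreads in the blocks that hold the flanks. The highest block was 18.3-fold the lowest (adjusted p = 0.00254). The other probes of the gene, A_55_P2117853 and A_55_P2111267, gave adjusted p-values of 0.000988 and 0.00372, and the 3 probes followed each other with a Pearson r of 0.986 to 0.997 over the fractions of any plane. Within slide 2 and within slide 3 the adjusted p of the main probe was 0.315 and 0.0834.

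Tcf7l2, a transcription factor of the thalamus, was also high between the ends and peaked in coronal fraction 8, at 2.97, beside 2.69 for Lhx9 in that fraction. The list of 5 thalamus genes, all detected, had a summed linear level of 3.64 to 22.6 over the coronal fractions and was highest there too. The highest fraction of Lhx9 was the next one, at 2.74. Other lists also met high Lhx9 levels. The habenula list was highest in coronal fraction 3 and the dorsal midbrain list in fraction 4, where Lhx9 was at 2.42 and 2.59. In the horizontal series the thalamus and dorsal midbrain lists were highest in fraction 4. The habenula list was highest in horizontal fraction 3, as was Lhx9.

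Lmx1a, which acts in the roof plate, the choroid plexus border and midbrain dopamine neurons, had a plateau with several maxima. Its probe A_55_P2146314 was at -3.79 in coronal fraction 1, at 1.00 in fraction 3, at 0.31 and 0.05 in fractions 4 and 5, and at 0.82 and 0.86 in fractions 6 and 7. It was then at -1.20 in fraction 8 and at -3.44 in fraction 12, and in fractions 13 and 14 it was not well above background. The block means were -1.26 ± 2.41, 0.40 ± 0.39, -0.56 ± 1.24, -2.34 ± 1.03 and -4.44 ± 0.80 (SD, n = 3). Only the last block failed to overlap its neighbour in rank. The highest block was 28.5-fold the lowest (adjusted p = 0.0103), a fold that rests in part on background values, since the gene was detected in 1 of the 3 fractions of the lowest block. Within slides 2 and 3 the adjusted p was 0.664 and 0.0834.

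The coronal maxima of Lmx1a fell near those of some genes from separate lists, given here as examples. Other lists were highest in the same fractions, the habenula list in coronal fraction 3 and the hypothalamus list in fraction 6. Ttr, the main product of the choroid plexus, was highest in coronal fraction 3, at 8.32. Slc6a3, the dopamine transporter, and Pitx3, a factor of dopamine neurons, were highest in fraction 6, at 3.32 and -0.90. The summed linear level of the 5 choroid plexus genes ran from 7.82 to 355 over the coronal fractions, and that of the 8 dopamine neuron genes from 4.90 to 49.2, with all of them detected. In the horizontal series these lists were highest in fractions 5 and 6, and Lmx1a in fraction 6. The meeting of maxima did not hold for the sums of these lists in the sagittal series. There the choroid plexus list was highest in fraction 10 and the dopamine neuron list in fraction 1. Lmx1a was highest in sagittal fraction 4, at 0.27, and lowest in fraction 1, at -3.84. The part of these genes in the Lmx1a profile was not tested.

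Lmx1b, which is needed for serotonin neurons and for the dorsal side of the limb, gave low signals. Its main probe A_55_P2146297 lay between -4.15 and -3.15 in the coronal series and was detected in 14 of its 15 fractions. All neighbouring blocks overlapped (adjusted p = 0.730). The other probe, A_55_P2146295, was highest in coronal fraction 1, at -1.85, and lay between -4.26 and -2.67 in the others (adjusted p = 0.0904). The probes followed each other with an r of 0.14 over the coronal fractions, 0.51 over the horizontal and -0.36 over the sagittal ones, so they disagree on where the gene is high. Fev and Slc6a4, a factor and the transporter of serotonin neurons, both peaked in coronal fraction 5, at -0.84 and 1.86, where the Lmx1b probes were at -3.73 and -3.51.

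Isl2, a gene of motor neurons and of some retinal neurons, was above background in few fractions. Its probe A_55_P2016262 was clear of background in 4 coronal fractions: fraction 2 at -3.17, fraction 3 at -2.67, fraction 4 at -4.12 and fraction 8 at -2.46. In the other 11 coronal fractions it was not. The blocks did not pass the test (adjusted p = 0.496). The gene thus appeared in a stretch at the low-numbered end and in 1 separate fraction.

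Prph, a neurofilament gene of neurons with peripheral axons, was at 1.41, 2.06 and 2.30 in coronal fractions 2 to 4, and the last of these was its highest coronal level. In the other planes Prph was highest in horizontal fraction 7, at 1.29, and sagittal fraction 9, at 1.42, where Isl2 was not well above background. Isl1, the close relative of Isl2, was highest in coronal fraction 11, at 0.94, where Isl2 was at background.

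The peak of Isl2 in coronal fraction 8 was met by those of pineal genes. Crx, a homeobox gene of the pineal gland and retina, was detected in no more than 3 of the 34 fractions: coronal fraction 8 at -3.62, horizontal fraction 2 at -2.56 and sagittal fraction 5 at -4.14. Isl2 was highest in the same fraction of each plane, at -2.46, -2.36 and -2.89. Tph1, the enzyme that starts serotonin synthesis in the pineal gland, also peaked in these fractions, at 1.94, 2.53 and 1.69. Each Isl2 peak was set against the mean log2 level of both its neighbours. The ratio to that mean was no less than 6.95 for coronal fraction 8, 6.61 for horizontal fraction 2 and 4.76 for sagittal fraction 5. These ratios are bounds, since the neighbours were not well above background. Each neighbour was set to the higher of its own signal and the lowest signal called well above background on its array. The ratios are not bounds against each neighbour alone, since sagittal fraction 6 was at -4.70 beside -2.89 in fraction 5. The summed linear level of the 3 pineal genes on the array ran from 0.518 to 4.63 over the coronal fractions. Aanat, the third of them, was detected in all 34 fractions and peaked in coronal fraction 15 and sagittal fraction 1, so the meeting of peaks did not hold for the whole list. It was noticed after the values were seen and was not tested.

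**Figure D3:**
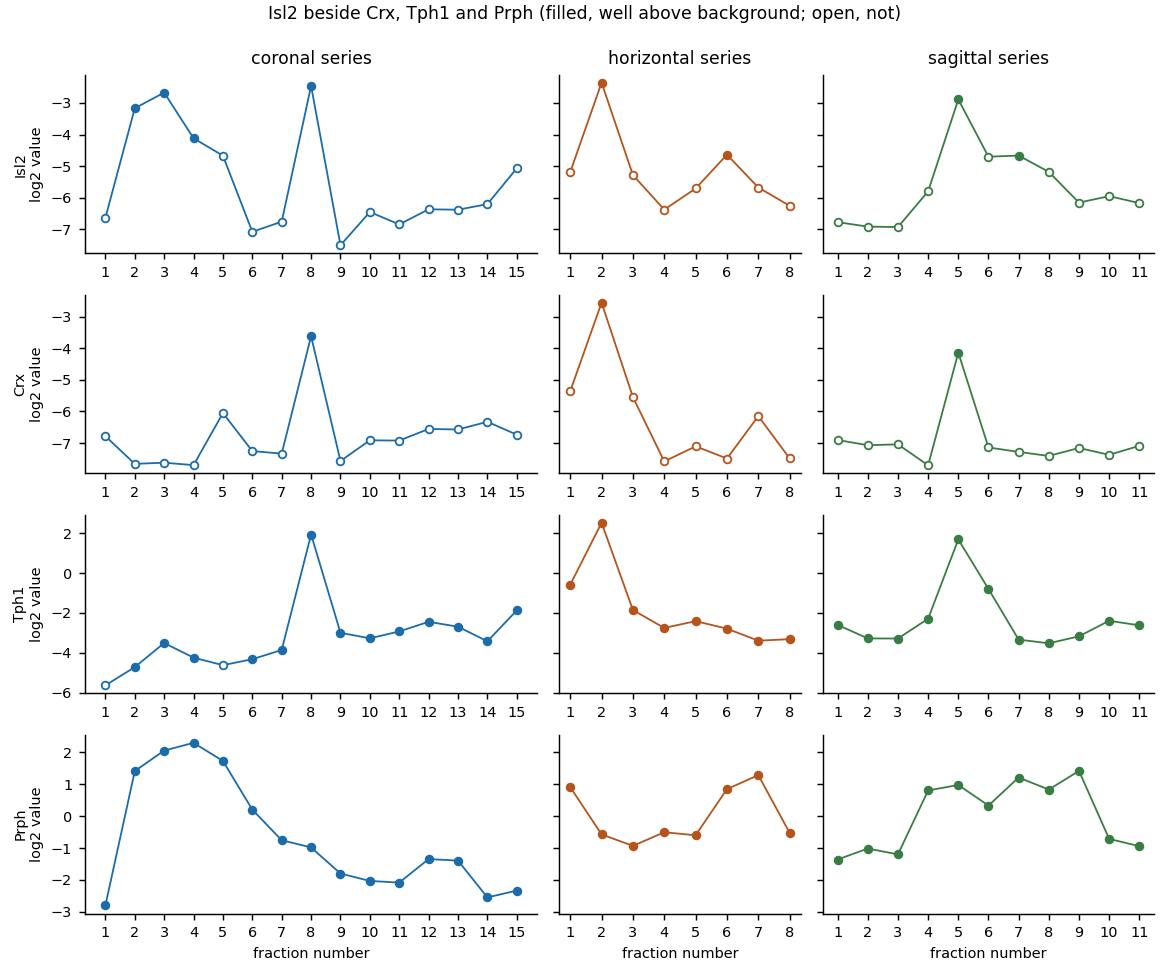
Log2 level (vertical axis, own scale in each row) of Isl2, the pineal genes Crx and Tph1 and the neurofilament gene Prph against fraction number (horizontal axis) in the 3 series. Filled points were well above background and open points were not. Isl2, Crx and Tph1 peak together in coronal fraction 8, horizontal fraction 2 and sagittal fraction 5, and Isl2 is also above background in coronal fractions 2 to 4, where Prph is between 1.41 and 2.30.

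Between neighbouring coronal blocks, single steps passed the test for 2 genes. From fractions 1-3 to 4-6, Lhx2 rose by 1.70 ± 0.29 on the log2 scale (SE, adjusted p = 0.00826), a step that 2.75% of all probes passed. Without fraction 1 the step was 1.46 with an adjusted p of 0.0508, and within slide 2 the adjusted p was 0.0340. From fractions 7-9 to 10-12, where 1.24% of probes passed, Lhx1 fell by 1.34 with an SE of 0.31 (adjusted p = 0.0497). This call was lost in 9 of the 15 fits that leave out 1 fraction, and under 6 of 8 other alternatives. With slide as a term the step was -0.70 (adjusted p = 0.664), and with normexp -0.55 (adjusted p = 0.151). The adjusted p was 0.0743 with median scaling, 0.0574 with quantile scaling, 0.114 without the variance trend and 0.184 without slide 5.

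Lhx9 had a difference of -3.27 ± 0.76 (SE) across the same step, but its main probe had an adjusted p of 0.0522. Its other probes passed, at -3.10 (adjusted p = 0.0353) and -3.66 (adjusted p = 0.0496). The main probe of Lhx9 passed with the authors' log2 values, the detection filter and normexp, and without coronal fraction 1, 3, 10 or 15. Under the remaining alternatives it did not pass. None of the 7 genes passed from fractions 4-6 to 7-9, where 0.158% of probes did, or from 10-12 to 13-15, where 1.84% did. For Lhx1 and Lhx5, the step from 4-6 to 7-9 was -1.5 ± 0.31 and -1.35 ± 0.39 (SE), with adjusted p-values of 0.076 and 0.283.

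In the horizontal series only Lhx2 differed between the 4 blocks of 2 fractions (adjusted p = 0.0470). In this test 0.431% of all probes passed and 3.19% of detected probes. Lhx2 had levels of 4.41, 4.63, 4.55 and 4.56 in fractions 1 to 4, and then of 4.03, 3.32, 2.98 and 2.71 in fractions 5 to 8. Fractions 1-2 and 3-4 overlapped, and 5-6 and 7-8 lay below them without overlap. The highest block was 3.28-fold the lowest. Leaving out 1 fraction lost the call in 5 of 8 fits, with an adjusted p of 0.0782 without fraction 1 and of 0.0545 to 0.0996 without fraction 2, 3, 4 or 8. The call was also lost with median scaling (0.0568), quantile scaling (0.116), no variance trend (0.138) and without slide 5 (0.0626).

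Against the mean of fractions 1 to 3, that of fractions 6 to 8 was lower for Lhx2 by 1.53 on the log2 scale, with an SE of 0.18 (an estimate of -1.53, adjusted p = 0.0180). All 3 fractions of the one end lay below all 3 of the other, and 0.787% of all probes passed this test. Without horizontal fraction 1 the estimate was -1.59 (adjusted p = 0.0398). Without fraction 2, 7 or 8 the adjusted p was 0.0783, 0.0823 and 0.0539, and it was 0.0627 with slide as a term, 0.0639 with quantile scaling and 0.0877 without the variance trend.

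Lhx9 was high in the low-numbered horizontal fractions and peaked in fraction 3. Its levels were 0.71, 2.00, 2.92, 2.54 and 2.09 in fractions 1 to 5 and 0.47, -0.53 and 0.09 in fractions 6 to 8. The difference between the ends was -1.86 ± 0.48 (SE, adjusted p = 0.132). Without fraction 1 it was -2.44 ± 0.34 (SE, adjusted p = 0.0411).

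Lmx1a was lowest in horizontal fractions 2 and 3 and highest in fractions 5 to 7. It was at -1.59 in fraction 1, at -4.52, -3.57 and -1.70 in fractions 2 to 4, and at 0.12, 0.61 and -0.35 in fractions 5 to 7, before -1.99 in fraction 8. The difference between the ends was 2.65 ± 0.85 (SE, adjusted p = 0.218), or 3.47 ± 0.79 without fraction 1 (adjusted p = 0.125). Over the 4 blocks the adjusted p was 0.115 for Lhx9 and 0.213 for Lmx1a, and with the normexp background correction both passed, at 0.0211 and 0.0313. Without fraction 1 it was 0.133 for both. Slc6a3 was highest in fraction 6, at 2.31, and Ttr in fraction 5, at 7.79.

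The other genes varied less along this axis. Lhx1 was highest in horizontal fraction 4, at -1.0, and lowest in fraction 8, at -2.57, with overlapping neighbours in rank (adjusted p = 0.263). Lhx5 lay between 0.87 and 1.28 in all 8 fractions (adjusted p = 0.898). The main Lmx1b probe lay between -4.29 and -3.66 in the horizontal series and between -3.98 and -3.33 in the sagittal series. Isl2 was detected in horizontal fractions 2 and 6, at -2.36 and -4.64, and in sagittal fractions 5 and 7, at -2.89 and -4.66. With all 8 horizontal fractions the adjusted p over the blocks was 0.827 for Lmx1b and 0.394 for Isl2. Without fraction 1 the adjusted p over the horizontal blocks was 0.377 for Lhx1, 0.922 for Lhx5, 0.904 for Lmx1b and 0.157 for Isl2. The horizontal range of 0.41 of Lhx5 compares with a median range of 0.79 over the detected probes. Horizontal fractions 3 and 4 are the only ones on slide 5, so that their block and their slide cannot be told apart.

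In the sagittal series Lhx1, Lhx2, Lhx5, Lhx9 and Lmx1a differed with the distance from fraction 6, which was taken as the middle (adjusted p of 0.00176, 0.000219, 0.00405, 0.00437 and 0.0397). In this test 13.7% of all probes passed and 25.9% of detected probes. The labels do not place the midline. When it was put between fractions 5 and 6, none of the 55681 probes passed in limma, although 3640 had an unadjusted p under 0.05. When it was put between fractions 6 and 7, Lhx2 was lost (adjusted p = 0.0671). To keep mirror pairs, the first of these fits also left out fraction 11 and the second fraction 1. The effects of the midline and of the missing fraction cannot be told apart. Within slide 4, which holds fractions 2 to 9, all 5 passed again, with adjusted p-values between 0.00256 and 0.0271. The call of Lmx1a was lost in 8 of the 11 fits that leave out 1 fraction, with an adjusted p of 0.203 without fraction 1.

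Fitted as a line, Lhx1, Lhx5, Lhx9, Lmx1a and Isl2 fell outward and Lhx2 rose, where 5.55% of all probes fell outward and 10.7% rose. The slopes per fraction, on the log2 scale, were -0.59 ± 0.08 for Lhx1, -0.61 ± 0.09 for Lhx5, -0.92 ± 0.13 for Lhx9, -0.59 ± 0.15 for Lmx1a, -0.55 ± 0.14 for Isl2 and 0.32 ± 0.04 for Lhx2 (SE). Their adjusted p-values were 0.000437, 0.000538, 0.000603, 0.0155, 0.0173 and 0.000129. Lmx1b had a slope of -0.004 ± 0.05 (adjusted p = 0.969). Without the outermost pair, whose fractions pool 2 cuts each, Lmx1a and Isl2 no longer passed (adjusted p of 0.395 and 0.0577). With slide as a term neither passed (adjusted p of 0.208 and 0.052). Within slide 4 neither passed (adjusted p of 0.187 and 0.0647), nor did Lhx5, at a slope of -0.55 (adjusted p = 0.0626). Without sagittal fraction 1 or 11 alone the adjusted p of Lmx1a was 0.0664 and 0.0574. The slope of Isl2 is mostly among values at background, and with the normexp background correction it was -0.003 (adjusted p = 0.946).

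**Figure D4:**
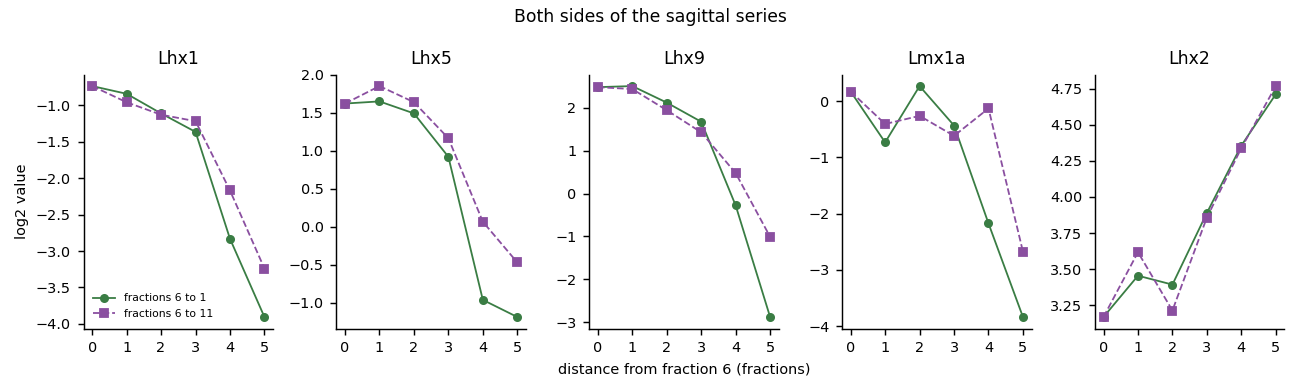
Log2 level (vertical axis, own scale in each panel) against the distance from sagittal fraction 6 (horizontal axis, in fractions) for both sides of the series. Solid lines with circles are fractions 6 to 1 and broken lines with squares fractions 6 to 11. Lhx1, Lhx5, Lhx9 and Lmx1a are lowest in the outermost fraction of each side, and Lhx2 is highest there.

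Lhx9 had the widest sagittal range of the 7 genes, from 2.50 in fraction 5 to -2.88 in fraction 1. On that side it was at 2.12, 1.67 and -0.28 in fractions 4, 3 and 2, and on the other side at 2.43, 1.94, 1.43, 0.48 and -1.01 in fractions 7 to 11. The fraction in the middle was 21.4-fold the outermost pair. Lhx1 fell from -0.74 in fraction 6 to -3.91 in fraction 1 and -3.24 in fraction 11. Its 6 distances from the middle followed each other without overlap.

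Lhx5 reached 1.85 in sagittal fraction 7 and -1.19 in fraction 1. Lmx1a stayed between -0.73 and 0.27 in fractions 3 to 10, with -2.17 in fraction 2 and the outermost fractions at -3.84 and -2.68. Its slope therefore rests on the outer fractions. Lhx2 was lowest in the middle, at 3.17, and highest in fractions 1 and 11, at 4.71 and 4.77.

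The sides of the sagittal series were compared over the mirror pairs. With limma none of the 7 genes passed, and of all probes 0% passed, while 4797 (8.62%) had an unadjusted p under 0.05. The difference of fractions 7 to 11 over 5 to 1 was 0.47 ± 0.13 for Lhx5 (SE, unadjusted p = 0.00707, adjusted p = 0.507) and 0.56 ± 0.34 for Lmx1a (adjusted p = 0.673). For Lhx2 it was -0.002 ± 0.05 (adjusted p = 0.999).

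The 3 pairs of close relatives in the family differed in how alike their profiles were. Pearson's r is given as a description, since neighbouring fractions share tissue and are not independent. Lhx1 and Lhx5 had an r of 0.90 over the 15 coronal fractions, 0.41 over the 8 horizontal and 0.97 over the 11 sagittal ones. Lhx2 and Lhx9 had an r of 0.07, 0.84 and -0.90, so that they ran together along the horizontal series and opposite to each other from the middle to the sides. Lmx1a and Lmx1b had an r of -0.31, -0.05 and -0.09, with the main Lmx1b probe near background. Across the pairs, Lhx1 and Lhx9 had an r of 0.99 in the sagittal series and of 0.46 in the coronal series.

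**Figure D5:**
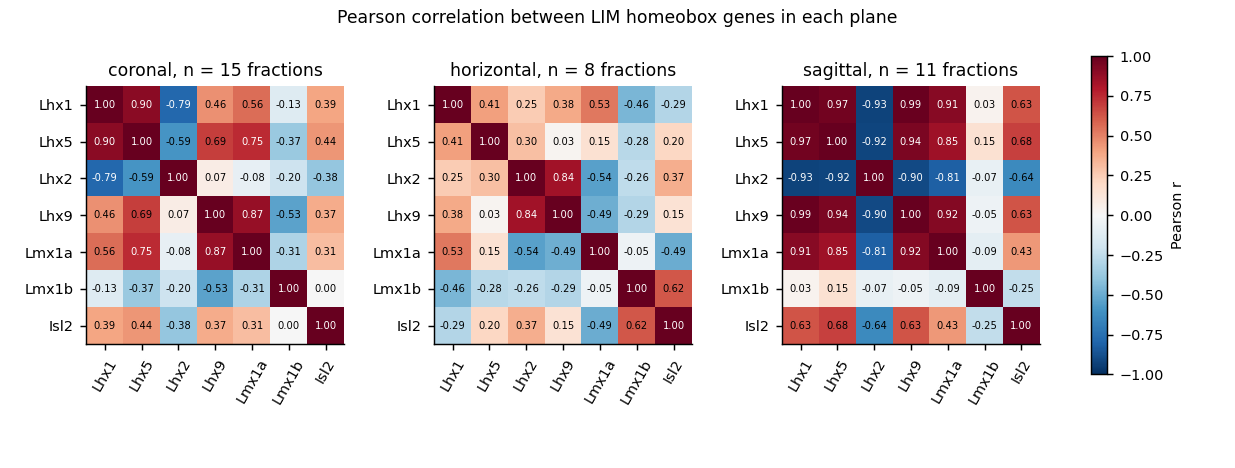
Pearson's r between each 2 genes over the fractions of the coronal, horizontal and sagittal series (main probes), from -1 in blue to 1 in red. In the sagittal series Lhx1, Lhx5, Lhx9 and Lmx1a have an r of 0.85 to 0.99 with each other and of -0.93 to -0.81 with Lhx2.

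Among 15870 named genes detected in each plane, those most like each member were ranked by the lowest of the 3 r values. Tcf7l2 was most like Lhx9, with an r of 0.93 (coronal), 0.98 (horizontal) and 0.93 (sagittal), followed by Zfp606 and Pcdh9 (lowest r of 0.87 and 0.83). Zfp664, Plcb4 and Tmem132c were most like Lhx1, with a lowest r of 0.91, 0.88 and 0.88. For Lhx2 they were Mpped1, Armc10 and Neurod6, a factor of cortical excitatory neurons, with a lowest r of 0.90, 0.88 and 0.88. For Lmx1a they were Slc39a12, Atp13a4 and Gfra3, with 0.87, 0.87 and 0.84.

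The likeness was weaker for the others. For Lhx5 the 3 genes were Lhx4, Clec2e and Arhgap28, with a lowest r of 0.77, 0.71 and 0.70. For Isl2 they were Gch1, Padi2 and Mgarp, with 0.69, 0.65 and 0.65. For Lmx1b they were Hspa8, Arl9 and Eqtn, with 0.69, 0.67 and 0.66.

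Over all 34 fractions, the number of similarly expressed transcripts at an r of at least 0.85 was 113 probes for Lhx1, 103 for Lhx5, 82 for Lhx2, 19 for Lhx9, 9 for Lmx1a and 0 for Lmx1b and Isl2. The set of Lhx9 also counts Lhx9 itself, as only its main probe was left out of the search. Lhx1 and Lhx5 were in each other's set, and no other 2 members were. These correlations pool 3 mice and 5 slides.

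The genes that work with this family, a list of 12 cofactors and other LIM genes, were all on the array and detected. In the coronal series 9 of the 12 passed the test of levels, beside the background of 25.0% (43.2% of detected probes) given above, and in the sagittal series 6 did, beside 13.7% (25.9% of detected probes). In the horizontal series 0 passed in limma, beside 0.431% (3.19% of detected probes). Of the 12, 8 had an unadjusted p under 0.05 there, a count that was not set against the share of all probes in that fit. Without the variance trend 8557 of all 55681 probes were under it in limma, and without horizontal fraction 1 9048 were. The count of 8 is therefore not read as a result about the list. Over the line of sagittal distance 7 rose outward and 2 fell, beside 10.7% and 5.55% of all probes. The 7 were Ldb1 and Ldb2, the bridging cofactors, Lmo1, Lmo3 and Lmo4, which compete for them, and Ssbp2 and Ssbp4, which bind and stabilise the cofactors.

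Lmo3 had the steepest rise, with a slope of 0.34 per fraction (adjusted p = 1.53e-05), and Ldb1 one of 0.08 (adjusted p = 0.017). The genes that fell outward were Lhx3 and Lhx4, factors of motor neurons and the pituitary, with slopes of -0.92 and -1.11 (adjusted p of 0.000429 and 0.000146). Both were highest in coronal fraction 4, at 0.51 and -0.87. Lhx4 was not well above background in coronal fractions 7 and 9 and was in fraction 8, at -3.60, the fraction of the Isl2 peak. Lmo2, Ssbp3 and Rlim, a ubiquitin ligase that targets the cofactors, passed none of these tests. The summed linear level of the whole list was highest in coronal fraction 11, horizontal fraction 2 and sagittal fraction 1.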

How the data were processed

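The 34 arrays were scanned by the authors and processed with Agilent Feature Extraction 10.10.1.1, per the file headers. The deposited intensity values are a background-subtracted processed signal, not scaled between arrays, and the median brightness of each spot and its local background. A second file the authors deposited holds log2 values, 99.9% of which equal the log2 of that signal minus an array constant, to a tolerance of 0.02. Here spots of a probe were averaged (flagged outlier spots left out), and the array's log2 75th percentile over 55681 probes was subtracted. Detection means that Agilent's flag for a signal well above background is set on the majority of a probe's spots. Probes were named through the accessions of the files and RefSeq (26582 probes, 20145 genes). A member's main probe is the one detected in most fractions, ties going to the higher median.

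Tests used limma 3.58.1 in R 4.3.3 (lmFit, eBayes with a variance trend) on all 55681 probes without a filter, with Benjamini-Hochberg adjustment and a threshold of 0.05: 5 coronal blocks and their 4 steps, 4 horizontal blocks and their ends, 6 sagittal distances, the slope with distance, and the sides with the mirror pair as a block. The scripts were tested on simulated data. Correlations used Python 3.11.15 with numpy 2.4.6, pandas 2.3.3 and scipy 1.17.1. Genes named beside the members are the 3 most like each, a list of 12 LIM cofactors and genes, and marker lists used only to find fractions where genes are highest, 1 of which is not reported here. The members and lists were chosen with earlier results of these data known. Alternatives were the array's median, quantile scaling, normexp with an offset of 50 (on the median signal, as the files used hold no mean signal), the authors' log2 table, a detection filter, no variance trend, slide as a term, leaving out slide 5 or single fractions, moved blocks, splines, other midlines and leaving out the outermost pair. Fits within single slides were chosen after seeing the data.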

Additional observations from a re-analysis of the deposited data

Results flagged for a closer look

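The 8 horizontal levels and the 5 differences of mirror pairs of each of the 10 probes made 20 groups of values. A single value lying far from the others was looked for with Dixon's criterion, and 4 were found. For independent, normally distributed values the criterion gives about 1 in 20 groups. These groups are ordered positions in 1 brain and some share a gene, so the count cannot be set against that rate. Isl2 was at -2.36 in horizontal fraction 2, and between -6.37 and -4.64 in the other 7 fractions, of which fraction 6 alone was well above background. The difference of sagittal fraction 7 over 5 was -1.78 for Isl2, while the 4 other mirror pairs gave 0.60 to 0.96, all from fractions where the probe was not well above background. The main Lmx1b probe was at -4.29 in horizontal fraction 4 and between -3.85 and -3.66 in the other fractions. The other Lmx1b probe differed by 0.51 between sagittal fractions 9 and 3, and by -0.17 to -0.08 in the other pairs.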

How the results depend on the processing

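No paired analysis was possible because the planes share only fraction numbers and are not compared with each other, apart from the mirror pairs within the sagittal series, which are a block in the comparison of its sides. Slide as a term could not be fitted for the horizontal levels. Values of single genes under an alternative were counted for the tests of levels of every gene. Steps, ends and slopes were counted only for genes that had passed them, so there a call could be lost but not gained. Of the counted values, 573 kept their side of the threshold, 68 were no longer past it and 3 moved past it. Gains outside this count, such as those of Lhx9 at the step from 7-9 to 10-12, are not among the 3. The tests of levels give no direction, so for them only the adjusted p was compared. The numbers of probes called were as follows, and the causes of the changes were not tested. Fits within a slide and fits with another midline hold fewer arrays. Coronal levels (13933 probes) gave 2988 with slide as a term, 25937 with a spline, 3101 within slide 2 and 166 within slide 3. The step from 1-3 to 4-6 (1529) gave 577 without the variance trend. The step from 4-6 to 7-9 (88) gave 57 with quantile scaling, 208 with normexp, 46 without the trend and 20 with slide. The step from 7-9 to 10-12 (693) gave 131 with median scaling, 1256 with the detection filter, 73 without the trend, 92 with slide and 27 without slide 5. The step from 10-12 to 13-15 (1024) gave 401 without the trend and 541 with slide. Horizontal levels (240) gave 127 with median scaling, 107 with quantile, 2129 with normexp, 1089 with the filter, 1405 with a spline and 0 without the trend (limma, 8557 at an unadjusted p under 0.05). Horizontal ends (438) gave 29 with quantile, 686 with normexp, 866 with the filter, 0 without the trend (6211 unadjusted) and 0 with slide (9606 unadjusted). Sagittal levels (7637) gave 21728 with normexp, 2401 without the trend, 1964 with slide, 2057 within slide 4, 1160 with the midline between 6 and 7, and 0 with it between 5 and 6 (3640 unadjusted). Sagittal distance (9029) gave 35705 with normexp, 2270 with slide, 3502 without the outermost pair and 2232 within slide 4. Sagittal side (0) gave 1 with normexp.

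Leaving out 1 fraction at a time gave 10652 to 22684 probes for coronal levels, 324 to 2649, 23 to 240, 11 to 3095 and 138 to 3342 for the steps in their order, 0 to 636 for horizontal levels (0 without fraction 1, with 9048 unadjusted), 0 to 1065 for horizontal ends, 4692 to 6763 for sagittal levels, 6208 to 9221 for sagittal distance and 0 to 0 for the side.

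The r of Lhx1 and Lhx5 was 0.85 (coronal) and 0.9091 (sagittal) by Spearman and 0.8908 over all 34 fractions, and ran from 0.8837 to 0.9518, 0.0491 to 0.5897 and 0.9591 to 0.9797 without 1 coronal, horizontal or sagittal fraction. That of Lhx2 and Lhx9 was 0.1643, 0.7619 and -0.8727 by Spearman, -0.8799 (sagittal) with quantile scaling and 0.0341 over all fractions, the opposite sign of the sagittal value. Without 1 fraction it ran from -0.1455 to 0.164, 0.7862 to 0.9377 and -0.9327 to -0.8907, with the coronal sign turned without fraction 1 (-0.1455), 8 (-0.0049) or 9 (-0.0098). That of Lmx1a and Lmx1b was -0.1974 over all fractions and -0.2797 (sagittal) with median scaling. Without 1 fraction it ran from -0.732 to -0.206, -0.2882 to 0.2899 and -0.2727 to 0.3905, turning sign without horizontal fraction 2 (0.2899) or sagittal fraction 1 (0.3905).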

Other observations

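The lists of marker genes peaked, by the sum of their linear levels, in the following fractions. The caudal hindbrain Hox genes peaked in coronal fraction 2, horizontal fraction 6 and sagittal fraction 7, the Purkinje cell genes in 1, 4 and 7 of the same series, and the cerebellar granule lineage in 2, 5 and 6. The dopamine neuron genes peaked in coronal fraction 6, horizontal fraction 6 and sagittal fraction 1, the serotonin neuron genes in 5, 5 and 6, and the dorsal midbrain genes in 4, 4 and 7. The thalamus genes peaked in coronal fraction 8, horizontal fraction 4 and sagittal fraction 5, the habenula genes in 3, 3 and 6, and the hypothalamus genes in 6, 7 and 6.

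The cerebral cortex genes peaked in coronal fraction 13, horizontal fraction 3 and sagittal fraction 1, the olfactory bulb projection neuron genes in 15, 7 and 5, and the Cajal-Retzius cell genes in 14, 1 and 11. The choroid plexus genes peaked in coronal fraction 3, horizontal fraction 5 and sagittal fraction 10, the pineal genes in 8, 2 and 5, and the pituitary genes in 8, 8 and 6. The sensory ganglia genes peaked in coronal fraction 12, horizontal fraction 8 and sagittal fraction 5, and the astrocyte and radial glia genes in 15, 4 and 6. The sum of a list is led by its most abundant gene. Asmt of the pineal list was not matched, and Otp and Gh were well above background in no fraction.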
